A study of Rattus norvegicus with 12 samples.

Results

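The nuclear genes for the subunits of the mitochondrial respiratory chain were followed across NMBA-induced tumor development in the rat esophagus. Members were all genes on the array whose platform symbol begins with Nduf, Uqcr, Cox4, Cox5, Cox6, Cox7, Cox8 or Atp5, together with Sdha to Sdhd, and the assembly factors named Ndufaf and Sdhaf were left out. This gave 80 of 14217 genes: 36 of complex I, 4 of complex II, 7 of complex III, 17 of complex IV and 16 of complex V. The rule goes by name. RNA was measured in 12 samples of rat esophagus, 1 Affymetrix array each. Animals were given NMBA (N-nitrosomethylbenzylamine), which produces squamous esophageal tumors in rats, or only its solvent, dimethyl sulfoxide in water. The NMBA dose was 0.3 mg/kg in 0.2 ml under the skin, with 3 injections per week for 5 weeks. Solvent controls had the same injection volume, injections per week and weeks of treatment. The 4 groups of 3 arrays were solvent control and NMBA at weeks 6, 15 and 29, which the labels call early, middle and late stages of tumor development. The sources used here do not give the sampling week, age or strain of the control rats, so time and age cannot be told apart from treatment in the comparisons with control. Between NMBA weeks, time, age and tumor stage likewise cannot be told apart.

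The respiratory chain is a series of protein complexes in the mitochondrial inner membrane. Complexes I and II feed electrons from NADH and succinate to ubiquinone, complex III passes them to cytochrome c, complex IV (cytochrome c oxidase) hands them to oxygen, and complex V (ATP synthase) uses the resulting proton gradient to make ATP. A few subunits of complex IV exist in a form made in heart and skeletal muscle and a form made in most tissues. The outer muscle coat of the rat esophagus is striated muscle, a tissue rich in mitochondria.

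The labels state that the submucosal and muscle layers were stripped off before RNA was made, yet skeletal muscle transcripts were bright on all arrays. The skeletal muscle score is the mean log2 signal of 36 marker genes in 1 array, none of them a respiratory chain gene. It was 11.30, 11.71 and 11.69 in the controls, 12.23, 12.09 and 12.20 at week 6, 10.53, 11.23 and 9.62 at week 15, and 11.82, 12.09 and 12.01 at week 29, while the median of all probe sets lay between 6.42 and 6.49 on every array. The 3 week 15 arrays were thus below all controls, and the 6 arrays of weeks 6 and 29 above them. A score of 8 slow fiber genes overlapped the controls (8.92 to 10.10) at week 6 (9.94 to 11.16), week 15 (7.06 to 9.10) and week 29 (9.11 to 9.46). A score of 12 fast fiber genes did not, at 12.12 to 12.40, 12.42 to 12.72, 10.70 to 11.97 and 12.52 to 12.94 in the same order. At an adjusted p under 0.05 (limma), 0 of the 36 muscle genes were higher at weeks 6 and 29, against 5.07% and 8.44% of all genes. At week 15, 10 were lower, against 8.38%. The score of 17 squamous epithelial genes, which included keratins 4, 5, 13, 14 and 15, ran opposite to the muscle score. It was 11.60 to 11.96 at week 15 and 10.51 to 10.81 at week 6, against 11.32 to 11.60 in the controls and 10.14 to 10.91 at week 29. A further technical reading, the GAPDH 3′ minus 5′ control signal, a measure of RNA integrity or labeling, was 0.22 to 0.53 in controls, 0.07 to 0.15 at week 6, 0.22 to 0.60 at week 15 and 0.13 to 0.21 at week 29. Of 4 markers of brown adipocytes, another mitochondria-rich cell, Ucp1, Elovl3 and Dio2 lay between 2.96 and 4.53 on all arrays. The other, Cidea, lay between 7.34 and 9.31 and was higher at week 15 than in controls (0.97 ± 0.24, adjusted p = 0.0296, limma). Fibroblast markers were lower at week 15, where 6 of 7 were below control, against 8.38% of all genes (score 9.60 to 10.18, against 10.50 to 11.34 in the controls). At week 15, 5 of 7 were lower than at week 6 (21.2% of all genes), while 5 were higher at week 29 than at week 15 (21.1%). Of 5 endothelial markers, 2, 2 and 4 were lower than control at weeks 6, 15 and 29, against 3.76%, 8.38% and 10.8% of all genes. Of 9 smooth muscle markers, 0, 3 and 5 were lower than control at those weeks, and 1 was higher at week 29 (8.44% of all genes). In bulk samples, fewer cells of a type and less RNA per cell cannot be told apart.

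The promoters of 4 members are shown because these genes stand for the patterns described below: Cox6a2 and Cox8b are the muscle forms of complex IV subunits 6a and 8, Cox8a is the general form of subunit 8, and Sdhb, the iron-sulfur subunit of complex II, moved with the majority. Each line is the 250 bases before the annotated gene start in RefSeq (rat build GRCr8), 5′ to 3′ on the gene's strand. Capitals mark matches, on either strand, to the ETS-type motif CGGAAG, the E-box CANNTG bound by myogenic factors, the TATA box TATAAA or the MEF2 motif.
Cox6a2: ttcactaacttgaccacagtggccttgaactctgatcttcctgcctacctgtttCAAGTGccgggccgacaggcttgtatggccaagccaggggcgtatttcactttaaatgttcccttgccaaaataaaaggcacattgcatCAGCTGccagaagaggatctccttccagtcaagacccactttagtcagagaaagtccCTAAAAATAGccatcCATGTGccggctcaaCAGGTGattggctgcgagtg
Cox8b: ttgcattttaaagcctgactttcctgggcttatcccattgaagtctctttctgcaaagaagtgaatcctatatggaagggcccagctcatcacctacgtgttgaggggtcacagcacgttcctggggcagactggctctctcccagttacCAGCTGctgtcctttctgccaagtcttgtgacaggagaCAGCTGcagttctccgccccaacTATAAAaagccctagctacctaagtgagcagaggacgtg
Cox8a: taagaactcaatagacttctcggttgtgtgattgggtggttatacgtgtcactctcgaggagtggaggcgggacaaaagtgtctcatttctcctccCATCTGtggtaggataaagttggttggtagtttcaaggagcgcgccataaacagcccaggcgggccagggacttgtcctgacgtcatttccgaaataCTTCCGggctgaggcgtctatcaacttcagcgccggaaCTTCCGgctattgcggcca
Sdhb: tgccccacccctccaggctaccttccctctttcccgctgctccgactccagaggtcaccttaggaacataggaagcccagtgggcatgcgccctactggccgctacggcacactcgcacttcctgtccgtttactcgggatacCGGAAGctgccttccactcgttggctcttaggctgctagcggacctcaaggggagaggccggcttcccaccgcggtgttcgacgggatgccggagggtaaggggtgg
These windows are chr1:192219717-192219966 (minus strand), chr1:205408274-205408523 (minus strand), chr1:213833624-213833873 (minus strand) and chr5:158547684-158547933 (plus strand). Cox6a2 held 4 E-boxes and 1 MEF2 match, Cox8b 2 E-boxes and 1 TATA box, Cox8a 2 ETS-type matches and 1 E-box, and Sdhb 1 ETS-type match. A window was found for 72 of the 80 members (not for Ndufa8, Ndufb9, Uqcr11, Cox4i2, Cox6a1, Cox6c, Cox6c-ps1 and Atp5pd). The ETS-type motif occurred in 33 of the 72 windows (45.8%), against 4037 of 27457 windows of the same length, 1 per gene. The motif of nuclear respiratory factor 1, GCGC and TGCGC with any base between, occurred in 10 (13.9%), against 4.17% of all windows. E-boxes occurred in 52.8% against 65.2%, TATAAA in 11.1% against 13.1%, the estrogen-related receptor motif TNAAGGTCA in 1.39% against 1.00%, and the MEF2 motif in 1.39% (only Cox6a2) against 3.07%. A match is a description of letters and not evidence of binding.

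Signals are log2 values as deposited, and differences are in log2 units ± standard error from limma 3.58.1, with Benjamini-Hochberg adjustment of p over the 31042 probe sets tested. A gene is counted as higher or lower at an adjusted p under 0.05, and every adjusted p below comes from that fit unless stated. Counts with an array left out or a setting changed are of members, mostly without the share of all genes. They do not show whether calls changed on the whole array as well. Differences at equal muscle score come from a fit with that score as a covariate. The scores of each NMBA group did not overlap the controls, and those of week 15 did not overlap weeks 6 or 29. In these comparisons the fit thus extends the slope within groups beyond the scores that groups share. The absence of calls there does not show what a difference is due to. The 80 members averaged 11.28, 11.39 and 11.29 in the controls, 11.54, 11.59 and 11.61 at week 6, 10.85, 11.12 and 10.79 at week 15, and 11.45, 11.66 and 11.65 at week 29. The week 15 arrays were below all controls and those of weeks 6 and 29 above all controls. All comparisons with control share the same 3 control arrays.

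At week 6, every member that passed the test was higher than in controls. Of the 80 members 7 were higher and 0 lower than control, against 5.07% of all genes higher and 3.76% lower, and the median difference was 0.28 against -0.03 for all genes. All week 6 arrays exceeded all control arrays for 67 members, and the reverse held for 1, against 20.4% and 22.3% of all genes. The genes that rose were Ndufs1, Ndufs3 and Ndufa8 of complex I, Sdha and Sdhd of complex II, Uqcrc2 of complex III and Atp5f1a of complex V, and none of complex IV. Ndufs1, the largest iron-sulfur subunit of complex I, rose by 0.72 ± 0.17 (adjusted p = 0.0314), Uqcrc2, a core subunit of complex III, by 0.59 ± 0.13 (adjusted p = 0.0259), and Sdha, the flavoprotein of complex II, by 0.50 ± 0.11 (adjusted p = 0.0271). The lowest p in complex IV belonged to Cox4i1 (0.29 ± 0.10, adjusted p = 0.093). The muscle score was higher in the same arrays. At equal muscle score limma counted 0 members, and of all genes 0 higher and 1 lower. Of the members, 12 had an unadjusted p under 0.05 (15.0%, against 19.5% of all genes), and their median difference over all 80 was 0.14. The count of 7 members became 0 with the GAPDH signal as a covariate. It was 0 without control replicate 1, control replicate 3 or any 1 of the week 6 replicates, and 3 and 4 without week 29 replicates 2 and 3. It was 11, 13 and 23 without week 29 replicate 1, week 15 replicate 3 and week 15 replicate 2.

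At week 15 every member that passed the test was lower than in controls. Of the 80 members 36 were lower and 0 higher, against 8.38% and 1.54% of all genes, and the median difference was -0.39 against 0.03. For 64 members all week 15 arrays were below all controls, as for 17.4% of all genes, and for 0 members all were above. The lower genes comprised 19 of 36 in complex I, 4 of 4 in complex II, 3 of 7 in complex III, 4 of 17 in complex IV and 6 of 16 in complex V. The largest falls among those that passed were those of Cox8b (-1.58 ± 0.32, adjusted p = 0.0159) and Cox5a (-0.93 ± 0.19, adjusted p = 0.0152), the latter a structural subunit of complex IV, and Cox6a2 missed the threshold at -1.28 ± 0.38 (adjusted p = 0.0577). Sdhb fell by 0.65 ± 0.13 (adjusted p = 0.0157), Ndufs1 by 0.65 ± 0.17 (adjusted p = 0.0399), and Uqcrfs1, the Rieske iron-sulfur protein of complex III, by 0.62 ± 0.15 (adjusted p = 0.028). At equal muscle score 0 members were counted, and 0 of all 14217 genes. Of the members, 3 had an unadjusted p under 0.05 (3.75%, against 1995 of all genes, or 14%), and the median over all 80 was -0.16. With only the controls and week 15 in the fit, 1 member was counted. Without 1 array at a time, the count was 2 without control replicate 2 or week 15 replicate 3, 4 without control replicate 3, 7 without week 15 replicate 1, 19 without control replicate 1 or week 6 replicate 1, 20 without week 6 replicate 2, and 60 without week 15 replicate 2.

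At week 29 a minority of members passed the test, most of them higher than control. There were 11 higher and 2 lower, against 8.44% and 10.8% of all genes, with a median of 0.29 against 0.01. All week 29 arrays exceeded all controls for 49 members and were below them for 2, against 22.6% and 20.9% of all genes. The higher genes were Ndufa6, Ndufb11, Ndufs1, Ndufs3, Ndufv2, Ndufv3, Sdha, Sdhb, Sdhd, Uqcrc2 and Cox4i1, the main form of a large nuclear-encoded complex IV subunit (0.39 ± 0.10, adjusted p = 0.0266). The 2 lower genes were Cox6a1 (-0.51 ± 0.15, adjusted p = 0.0407) and Cox8a (-0.37 ± 0.11, adjusted p = 0.0421), the general forms of their subunits. None of the 16 complex V genes was counted, and the lowest p there was that of Atp5f1a, the alpha subunit (0.30 ± 0.10, adjusted p = 0.0606). At equal muscle score 0 members were counted (27 at an unadjusted p under 0.05, or 33.8%, against 31.3% of all genes, median 0.20), while 618 of all genes were higher and 694 lower. The count of 13 became 0 with the GAPDH signal as a covariate and 0 without control replicate 1 or 3 or week 29 replicate 2 or 3, 4 and 6 without week 6 replicates 1 and 2, 21 and 34 without week 15 replicates 3 and 2, and 37 without week 29 replicate 1.

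**Figure D1:**
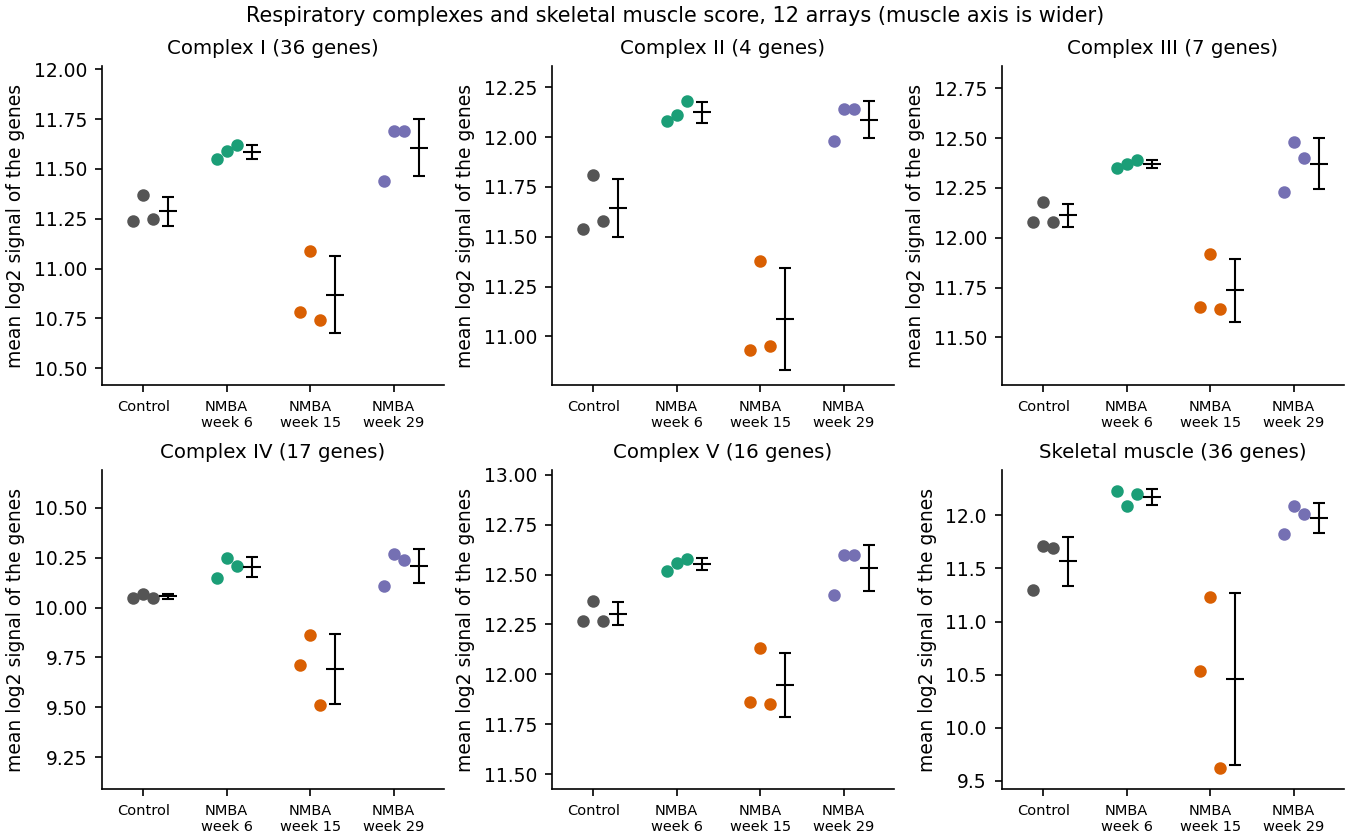
Mean log2 signal of the measured genes of each respiratory complex and of 36 skeletal muscle genes, by group; each point is 1 array, the horizontal mark and bars are the mean ± SD of 3 arrays, and every panel has its own range. In each complex the 3 week 15 arrays are the lowest; week 15 replicate 2 is the highest of them for each complex (11.09 for complex I) and for muscle (11.23).

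The widest differences were between NMBA weeks. From week 6 to week 15, 69 members were lower and 3 higher, against 21.2% and 22.7% of all genes, with a median of -0.68 against 0.07. From week 15 to week 29, 70 were higher and 2 lower, against 21.1% and 22.4%, with a median of 0.68 against -0.02. These comparisons share the week 15 arrays. Non-overlapping groups were seen for 70 lower and 4 higher members from week 6 to week 15 (25.6% and 30.1% of all genes), and for 70 higher and 3 lower members from week 15 to week 29 (25.4% and 26.7%). Leaving out any 1 array gave 67 to 72 and 71 to 73 members. Between weeks 29 and 6, limma counted 0 members and 0 of all genes (0%), with 3 members (3.75%) at an unadjusted p under 0.05, against 8.20% of all genes, and a median of 0.00. For 3 members all week 29 arrays were below all week 6 arrays (6.42% of all genes) and for 0 above (9.33%). The lowest p among these was that of Cox5a (-0.47 ± 0.19, adjusted p = 0.456).

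**Figure D2:**
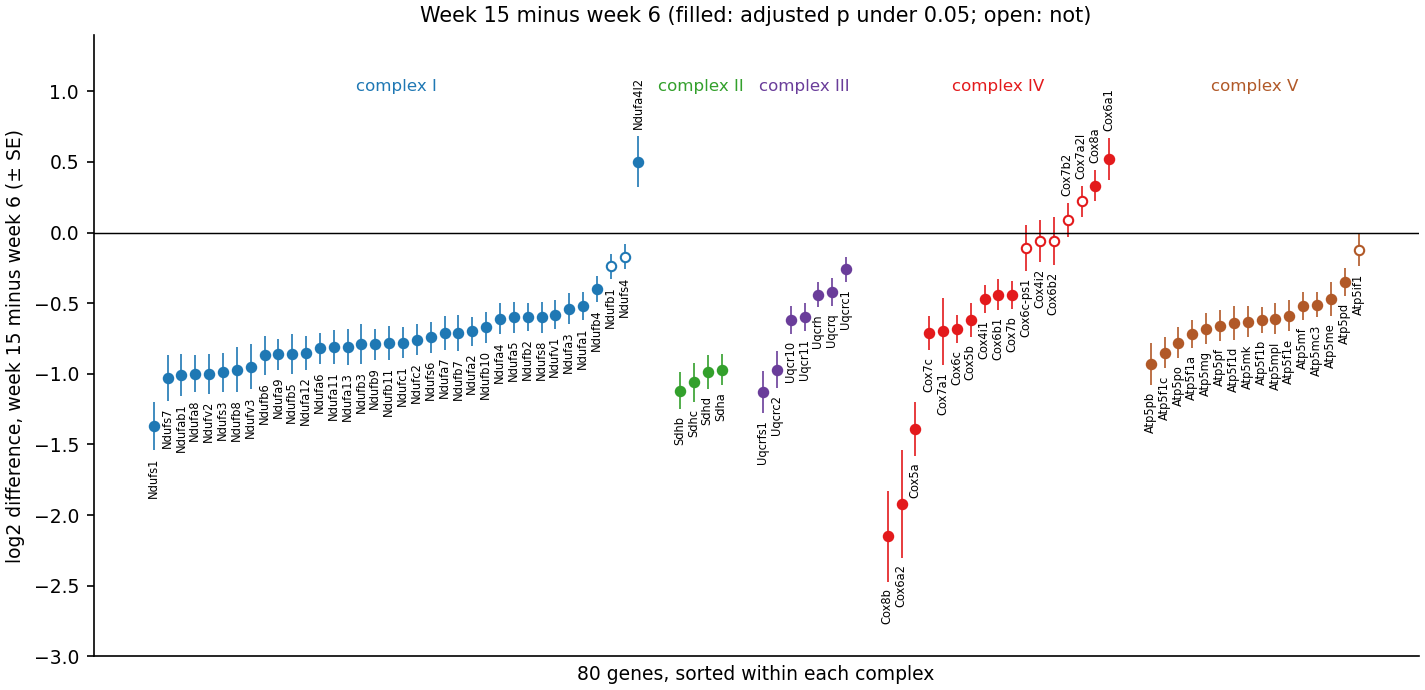
Log2 difference, week 15 minus week 6, of the 80 genes sorted within each complex, with bars of ± 1 standard error; filled points have an adjusted p under 0.05. Complexes I, II, III and V lie almost wholly below 0, and complex IV runs from Cox8b at -2.15 to Cox6a1 at 0.52.

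Complex I has the most subunits, and most of its genes fell from week 6 to week 15: 33 of 36 were lower and 1 higher, with a range from -1.37 to 0.50 and a median of -0.78. The median against control was 0.31 at week 6, -0.44 at week 15 and 0.31 at week 29. Ndufs1 measured 10.54, 10.90 and 10.39 in controls, 11.27, 11.28 and 11.45 at week 6, 9.67, 10.38 and 9.86 at week 15, and 11.15, 11.33 and 11.18 at week 29. Each week 15 value was below every control, and each value of weeks 6 and 29 above. Its fall from week 6 to week 15 was 1.37 ± 0.17 (adjusted p = 0.000149), the largest in the complex, and its later rise was 1.25 ± 0.17 (adjusted p = 0.000209). Ndufs7, a core subunit that carries an iron-sulfur cluster, followed with a fall of 1.03 ± 0.16 (adjusted p = 0.000525), and Ndufv3, an accessory subunit of the NADH-binding module, rose by 1.08 ± 0.16 from week 15 to week 29 (adjusted p = 0.000299). A dimmer probe set of Ndufv3 did not do so (-0.40, adjusted p = 0.137).

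Of complex I, 2 genes missed the threshold from week 6 to week 15, Ndufb1 (-0.24 ± 0.09, adjusted p = 0.0607, with every week 15 array below every week 6 array) and Ndufs4 (-0.17 ± 0.09, adjusted p = 0.165). Ndufs4, an accessory subunit needed for assembly, measured 10.03, 10.11 and 10.08 in controls, 10.09, 10.16 and 10.02 at week 6, 10.03, 9.83 and 9.91 at week 15, and 10.07, 9.98 and 10.21 at week 29. The gene that rose was Ndufa4l2, a hypoxia-inducible paralog of Ndufa4, by 0.50 ± 0.18 (adjusted p = 0.0472). Its values were 8.28, 7.62 and 8.02 in controls, 7.59, 7.43 and 7.95 at week 6, 8.07, 8.03 and 8.37 at week 15, and 8.10, 8.26 and 7.86 at week 29. The week 15 and week 6 values did not overlap, while both overlapped the controls. Ndufa4, whose protein is now placed in complex IV despite its name, fell by 0.61 ± 0.11 over the same interval (adjusted p = 0.000927).

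Complex II, succinate dehydrogenase, links the citric acid cycle to the chain, and its 4 genes had the largest median of any complex between NMBA weeks, -1.03 from week 6 to week 15 and 0.99 from week 15 to week 29, all 4 passing the test in both. Sdhb measured 11.51, 11.75 and 11.61 in controls, 12.01, 12.05 and 12.18 at week 6, 10.84, 11.29 and 10.78 at week 15, and 11.93, 12.08 and 12.18 at week 29. Sdha measured 11.38, 11.57 and 11.32 in controls, 11.90, 11.93 and 11.94 at week 6, 10.77, 11.17 and 10.90 at week 15, and 11.76, 11.95 and 11.88 at week 29. For both genes the week 15 arrays were below and the other NMBA arrays above all controls. From week 6 to week 15 Sdhb fell by 1.12 ± 0.13 (adjusted p = 0.000116), Sdhc, a membrane anchor, by 1.06 ± 0.14 (adjusted p = 0.000177), Sdhd, the other anchor, by 0.99 ± 0.12 (adjusted p = 0.000147), and Sdha by 0.97 ± 0.11 (adjusted p = 9.9e-05). Against control, Sdhb and Sdhc missed the threshold at week 6 (0.46 and 0.49, adjusted p = 0.0538 and 0.051), and Sdhc at week 29 (0.44, adjusted p = 0.0509). A second Sdhd probe set fell by 1.27 between weeks 6 and 15 (adjusted p = 0.000169).

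In complex III all 7 genes fell from week 6 to week 15 (median -0.60) and all 7 rose from week 15 to week 29 (median 0.64). Uqcrfs1 measured 12.00, 12.26 and 11.92 in controls, 12.52, 12.60 and 12.60 at week 6, 11.27, 11.80 and 11.25 at week 15, and 12.34, 12.68 and 12.56 at week 29, with no overlap of any NMBA group with the controls. It fell by 1.13 ± 0.15 from week 6 to week 15 (adjusted p = 0.000198), and Uqcrc2 by 0.97 ± 0.13 (adjusted p = 0.000192). Uqcrc1, the other core subunit, had the narrowest range of the complex, 12.20 to 12.74 over the 12 arrays, and fell by 0.26. In complex V, 15 of 16 genes fell and the same number rose, with medians of -0.62 and 0.63. Atp5pb, a subunit of the peripheral stalk, fell by 0.93 ± 0.15 from week 6 to week 15 (adjusted p = 0.000683), and Atp5f1c, the gamma subunit of the rotor, by 0.85 ± 0.11 (adjusted p = 0.000219). Atp5f1b, the catalytic beta subunit, measured 13.64, 13.81 and 13.75 in controls, 13.97, 13.99 and 14.05 at week 6, 13.35, 13.50 and 13.31 at week 15, and 13.88, 14.04 and 14.05 at week 29. The exception was Atp5if1, the inhibitor of ATP hydrolysis by the synthase, at -0.12 ± 0.12 and then -0.16 (adjusted p = 0.445 and 0.312). Of its 2 dimmer probe sets, 1 fell from week 6 to week 15 (-0.69, adjusted p = 0.00169), so its probe sets disagreed.

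As counted, complex IV was the least uniform, with 10 of 17 genes lower and 2 higher from week 6 to week 15 and a median of -0.44. Of the 5 genes that did not pass, 4 were dim forms named below, under the array median on all 12 arrays. They weigh on this count, on the median and on the mean of the complex. The forms of subunits 6a and 8 went apart. Cox6a2 measured 12.41, 12.91 and 12.50 in controls, 13.19, 13.29 and 13.26 at week 6, 11.45, 12.33 and 10.20 at week 15, and 13.06, 13.39 and 13.43 at week 29. Cox8b measured 12.43, 12.80 and 12.65 in controls, 13.12, 13.23 and 13.22 at week 6, 11.27, 11.81 and 10.06 at week 15, and 12.87, 13.38 and 13.27 at week 29. Both muscle forms were below every control at week 15, most of all in replicate 3, and above every control at weeks 6 and 29. From week 6 to week 15 Cox6a2 fell by 1.92 ± 0.38 (adjusted p = 0.00205), Cox8b fell by 2.15 ± 0.32 (adjusted p = 4e-04), and at equal muscle score the differences were 0.26 and -0.29 (adjusted p = 0.6 and 0.515).

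The general forms were measured over a smaller range and in the opposite order. Cox6a1 measured 11.55, 11.03 and 11.26 in controls, 10.89, 10.71 and 11.16 at week 6, 11.33, 11.48 and 11.51 at week 15, and 10.94, 10.79 and 10.58 at week 29. Cox8a measured 12.27, 12.10 and 12.31 in controls, 11.91, 11.79 and 12.06 at week 6, 12.18, 12.17 and 12.39 at week 15, and 12.01, 11.83 and 11.74 at week 29. At week 15 both genes overlapped the controls and lay above all arrays of weeks 6 and 29. From week 6 to week 15 Cox6a1 rose by 0.52 ± 0.15 (adjusted p = 0.0164) and Cox8a by 0.33 ± 0.11 (adjusted p = 0.0313). With the squamous epithelium score, whose mean was also highest at week 15, as a covariate these differences changed sign, to -0.11 and -0.06. Cox7a2l, a factor that joins complexes III and IV, had a difference of 0.22 ± 0.11 (adjusted p = 0.142).

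The difference between the muscle and the general form of a subunit within an array was then compared across the 4 groups. For subunit 6a it changed from control by 1.00 at week 6, -1.44 at week 15 and 1.20 at week 29, and for subunit 8 by 0.87, -1.61 and 0.91. An exact permutation test of the F statistic over all 369600 placements of the 12 arrays gave p = 0.000455 and 0.000584, both 0.000584 after adjustment over the 2 pairs (smallest p possible 6.49e-05). Every array of weeks 6 and 29 exceeded every control for both pairs. Every week 15 array was below every control for both pairs. Subunit 7a could not be compared, because the probe set of Cox7a2 carries a further gene symbol. Its muscle form Cox7a1 fell by 0.70 ± 0.24 from week 6 to week 15 (adjusted p = 0.0331) and rose by 0.89 ± 0.24 by week 29 (adjusted p = 0.0106).

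**Figure D3:**
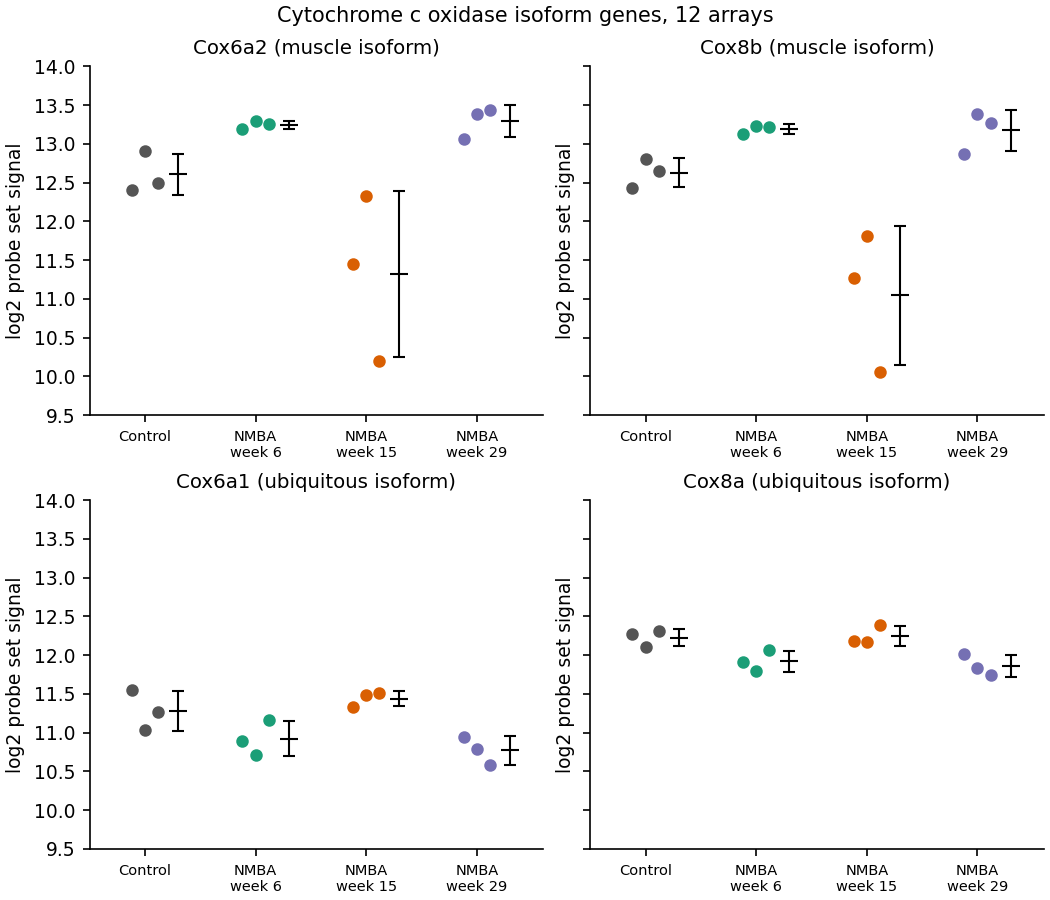
Log2 signal of the muscle forms (top) and general forms (bottom) of complex IV subunits 6a and 8 by group; points are arrays, marks and bars the mean ± SD of 3 arrays. Cox6a2 and Cox8b spread from 10.20 to 12.33 and from 10.06 to 11.81 at week 15, while Cox6a1 and Cox8a stay between 11.33 and 12.39 there.

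Of the other complex IV genes, Cox5a had the largest difference. Cox5a measured 8.29, 8.43 and 8.46 in controls, 8.72, 9.34 and 8.50 at week 6, 7.72, 7.40 and 7.26 at week 15, and 8.22, 8.42 and 8.50 at week 29. All week 15 values were below those of every other array. The probe set used is the 1 that names only Cox5a, and another, shared with a further symbol, was not used. Cox4i1 measured 12.55, 12.68 and 12.48 in controls, 12.83, 12.78 and 12.98 at week 6, 12.32, 12.56 and 12.30 at week 15, and 12.87, 12.98 and 13.05 at week 29, so week 15 overlapped the controls. It fell by 0.47 ± 0.10 from week 6 to week 15 (adjusted p = 0.00369). The forms Cox4i2 (lung), Cox6b2 (testis), Cox7b2 and the pseudogene Cox6c-ps1 were below the array median on all 12 arrays, and none was counted in any comparison. Cox6b1, the general form of subunit 6b, fell by 0.44 ± 0.11 from week 6 to week 15 (adjusted p = 0.00885).

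The members were next set beside the muscle score within groups, using a fit of the group means plus the score. The slope is the log2 change of a gene per log2 unit of muscle score among arrays of the same group. Of the 80 members 2 had a positive slope that passed the test, against 2.58% of all genes (0.155% had a negative one). These were Cox6a2 (1.27 ± 0.12, adjusted p = 0.000491) and Cox8b (1.09 ± 0.11, adjusted p = 0.000586). The next largest was Ndufs7 (0.45 ± 0.11, adjusted p = 0.0572), and the smallest were those of Ndufa4l2 (-0.26), Cox6b2 (-0.26) and Cox7a2l (-0.18). The median over all members was 0.20, against -0.03 for all genes, and 32 members (40.0%) had an unadjusted p under 0.05, as did 18.6% of all genes. Of the 36 muscle genes 27 passed, with a median of 1.00. They make up the score, so their mean slope is fixed by construction and is no measure for the members. Without week 15 replicate 3 the slope of 0 members, and of 0 of 31042 probe sets, passed, and the median slope was 0.37.

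The week 15 arrays were also set side by side. Replicates 1 and 3 differed by 0.90 in muscle score, and the median member differed between them by 0.04, with 46 members lower and 32 higher in replicate 3. The 2 members that differed by over 1 were Cox6a2 and Cox8b. Replicate 2, with the highest muscle score of the group, had the highest value for 69 of the 80 members. At equal muscle score, 0 members were counted from week 6 to week 15 or from week 15 to week 29 (15 and 33 at an unadjusted p under 0.05, or 18.8% and 41.2%, against 19.6% and 21.4% of all genes), and the medians were -0.29 and 0.36, in place of -0.68 and 0.68. For complex II these medians were -0.56 and 0.60. With the squamous epithelium score as the covariate instead, 0 members were counted in both comparisons and in each comparison with control. Over all genes, the fit with the muscle score counted 0 from week 6 to week 15, where 3232 were higher and 3015 lower without the score. From week 15 to week 29 it counted 109 higher and 37 lower genes, against 3002 and 3190 without the score. The part of skeletal or smooth muscle, epithelial, fibroblast, endothelial or brown adipocyte content or of RNA quality in these differences was not tested beyond these values.

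**Figure D4:**
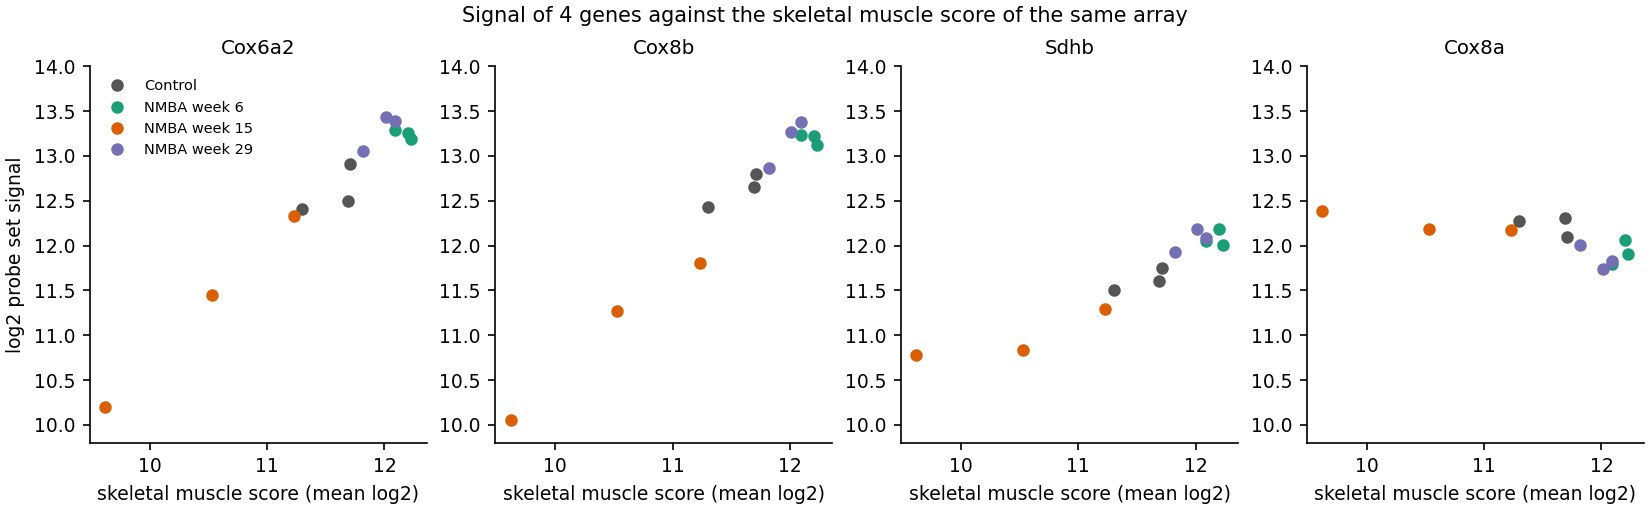
Log2 signal of Cox6a2, Cox8b, Sdhb and Cox8a against the skeletal muscle score of the same array, colored by group. Cox6a2 and Cox8b drop steeply down to the week 15 array with a score of 9.62, and Cox8a runs slightly the other way. Sdhb is at 10.78, 10.84 and 11.29 in the week 15 arrays with scores of 9.62, 10.53 and 11.23.

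Other mitochondrial gene groups were counted in the same fit, against 5.07% of all genes higher at week 6, 8.38% lower at week 15, 8.44% higher at week 29 and 21.2% lower at week 15 than at week 6. Of 14 citric acid cycle and pyruvate dehydrogenase genes, 9 were higher than control at week 6, 9 lower at week 15 and 10 higher at week 29, and all 14 fell from week 6 to week 15 (median -1.02). Citrate synthase (Cs), which makes the first intermediate of the cycle, fell by 0.86 ± 0.10 (adjusted p = 9.93e-05) and Sucla2, a subunit of succinyl-CoA synthetase, by 1.38 ± 0.13 (adjusted p = 4.52e-05) over that interval. Of 34 assembly factors, which help to build the complexes, 10 were higher at week 6, 5 lower at week 15, 15 higher at week 29 and 27 lower at week 15 than at week 6. Of 14 fatty acid oxidation genes the counts were 5 higher, 3 lower, 5 higher with 1 lower, and 10 lower with 1 higher. Of 73 mitochondrial ribosomal protein genes, 17 were higher at week 6, 4 lower at week 15, 12 higher at week 29, and 49 lower with 2 higher from week 6 to week 15. The ribosomal share lower at week 15 was below that of all genes. The ribosomal median between weeks 6 and 15 was -0.39, and -0.35 at equal muscle score, with a median slope on the muscle score of 0.00.

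Among 10 genes for electron carriers and the export of ATP, 7 fell and 1 rose from week 6 to week 15. Of all genes, 21.2% fell and 22.7% rose. The ADP/ATP carriers were on opposite sides. Slc25a4, the heart and muscle form, measured 13.42, 13.80 and 13.64 in controls, 13.97, 14.01 and 14.08 at week 6, 12.95, 13.25 and 12.60 at week 15, and 13.91, 14.05 and 14.05 at week 29. Slc25a5, the form of dividing cells, measured 12.61, 12.06 and 12.39 in controls, 11.85, 11.60 and 12.02 at week 6, 12.56, 12.65 and 12.96 at week 15, and 12.08, 11.47 and 11.17 at week 29. The first was lowest at week 15 and the second highest there, although for Slc25a5 1 control was among the week 15 values. From week 6 to week 15 Slc25a4 fell by 1.08 ± 0.15 (adjusted p = 0.000219) and Slc25a5 rose by 0.90 ± 0.21 (adjusted p = 0.00633). Cyc1, cytochrome c1 of complex III, whose symbol is outside the rule, fell by 0.97 ± 0.14 (adjusted p = 0.000275).

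Of 19 regulators of mitochondrial genes, 4 were higher and 1 lower than control at week 6, against 5.07% and 3.76% of all genes. At week 15, 3 were lower and 1 higher (8.38% and 1.54% of all genes), and at week 29, 6 were higher (8.44%). From week 6 to week 15, 11 were lower and 4 higher, against 21.2% and 22.7% of all genes. The share that rose was near that of all genes. Ppargc1a, the coactivator PGC-1alpha, measured 6.51, 7.50 and 7.22 in controls, 7.53, 7.52 and 7.79 at week 6, 6.18, 6.47 and 5.53 at week 15, and 7.39, 7.76 and 7.62 at week 29. Its week 15 values were below all others, and it fell by 1.55 ± 0.26 from week 6 (adjusted p = 0.000679), with -0.30 at equal muscle score. Tfam, which packages and transcribes mitochondrial DNA, measured 8.97, 9.13 and 8.90 in controls, 9.55, 9.51 and 9.62 at week 6, 8.50, 8.83 and 8.80 at week 15, and 9.44, 9.51 and 9.39 at week 29. Every week 6 and week 29 array exceeded every control, and every week 15 array was below. Tfam rose by 0.56 ± 0.10 at week 6 (adjusted p = 0.0209) and fell by 0.85 ± 0.10 from week 6 to week 15 (adjusted p = 0.00013), with -0.81 at equal muscle score and a slope on that score of 0.02 (adjusted p = 0.943). Tfb2m, a mitochondrial transcription factor, fell by 0.68 ± 0.10 over that interval (adjusted p = 0.000259, -0.77 at equal muscle score). Mef2c, a muscle transcription factor, fell by 1.95 ± 0.32 (adjusted p = 0.000669), with -0.15 at equal muscle score. From week 6 to week 15, 0 of all genes passed at equal muscle score. Whether these regulators differ from each other there was not tested. Nuclear respiratory factor 1 (Nrf1) and Gabpb1, the partner of an ETS factor that acts on many respiratory genes, rose by 0.41 ± 0.10 and 0.40 ± 0.09 (adjusted p = 0.0088 and 0.00565), opposite to most members. Gabpa, the DNA-binding ETS factor itself, fell by 0.36 ± 0.10 (adjusted p = 0.0116).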

How the data were processed

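RNA from 12 rat esophagus samples was hybridised to Affymetrix arrays, and the deposited values are log2 probe set signals. Per the submitters' processing notes, the authors used Affymetrix Expression Console. The summarization method, normalization and genome build used were not given in the sources used here. No probe-level files were used, so signal over background was not assessed. Values were used as deposited. The number of arrays limits the precision. The table has 31099 probe sets, of which 57 are array controls and 31042 were tested, without a filter on dim signal. Platform annotation gave 1 symbol to 20826 probe sets, several to 436 and none to 9780. The brightest single-symbol probe set stood for each of 14217 genes. The 80 members had 89 probe sets (8 members had several), and 7 further probe sets with several symbols were not named (Atp5mc1, Atp5mc2, Cox7a2, Cox5a, Ndufa10, Ndufs5 and Uqcrb). All 80 symbols were found in the RefSeq gene table of GRCr8.

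Groups were compared in R 4.3.3 by lmFit and eBayes of limma 3.58.1, two-sided, with all 12 arrays and 4 groups in 1 model and 8 residual degrees of freedom. The procedure was tested on simulated data. A further fit added the muscle score as a covariate. A score is the mean log2 signal of a list's genes in an array. Isoform pairs were compared with an exact permutation test, two-sided by construction. Whether arrays come from different animals is not in the labels. The p-values therefore reflect only the spread among these samples, which may be technical. The members and lists were chosen with earlier results of these data known. Named genes were the isoforms and complex II genes, the 2 largest rises and 2 largest falls of each complex among those that passed (otherwise the lowest p), the 3 largest and 3 smallest slopes, and regulators and markers that a result turned on. Ndufs4, Ndufb1, Atp5if1, Atp5f1b, Uqcrc1, Cs, Sucla2 and the genes given only in counts were named after their values were seen. Alternatives were another normalization, a filter on dim signal, the mean over a gene's probe sets, the 2 groups alone, a replicate block, covariates and leaving out arrays.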

Additional observations from a re-analysis of the deposited data

Results flagged for a closer look

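The change from control differed between NMBA weeks for most members, by the test of the difference itself (limma 3.58.1, adjusted p under 0.05). Since the controls cancel, these are the differences between weeks. Of all genes, 22.7% were higher and 21.2% lower at week 15 than at week 6. From week 15 to week 29, 21.1% were higher and 22.4% lower. Between weeks 15 and 6, 72 members passed, among them Ndufs1 (-1.37), Ndufs7 (-1.03), Sdhb (-1.12), Sdhc (-1.06), Uqcrfs1 (-1.13), Uqcrc2 (-0.97), Cox8b (-2.15), Cox6a2 (-1.92), Atp5pb (-0.93) and Atp5f1c (-0.85), with Ndufa4l2 (0.50), Cox6a1 (0.52) and Cox8a (0.33) on the other side. Between weeks 29 and 15, 72 members passed, among them Ndufs1 (1.25), Ndufv3 (1.08), Sdhb (1.09), Sdhc (1.01), Uqcrfs1 (1.08), Uqcrc2 (0.84), Cox8b (2.13), Cox6a2 (1.97), Atp5f1c (0.89) and Atp5pb (0.88), with Cox6a1 (-0.67) and Cox8a (-0.39) on the other side. The skeletal muscle score differed between the same groups without overlap. No member passed in either comparison at equal score, where the fit extends the slope within groups beyond shared scores. Over all genes, 0 passed at equal score from week 6 to week 15, and 109 higher and 37 lower from week 15 to week 29.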

How the results depend on the processing

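Between weeks 15 and 6, and between weeks 29 and 15, 51 to 73 and 66 to 72 members passed under another normalization, the filter, averaged probe sets, the 2 groups alone or the GAPDH covariate. Counts against control moved more, and the causes were not tested. The share of all genes that passed under each of these settings is not given here. At week 6 the 7 members became 4 after quantile normalization, 14 among brighter probe sets, 31 with only the groups compared, 27 without the week 15 arrays, 2 with the fast fiber score and 0 with the muscle, GAPDH, squamous or slow fiber score. At week 15 the 36 became 16 after quantile normalization, 1 with only the groups compared and 0 with the muscle, squamous, slow or fast fiber score. At week 29 the 13 became 8 after quantile normalization, 22 among brighter probe sets, 36 without the week 15 arrays, 21 with the slow fiber score and 0 with the muscle, GAPDH, squamous or fast fiber score. The 72 members between weeks 15 and 6 became 0 with the muscle, squamous or slow fiber score and 6 with the fast fiber score. The 72 between weeks 29 and 15 became 0 with the muscle, squamous or fast fiber score and 60 with the slow fiber score. The 2 slopes became 0 with the slow fiber list as the score or without the week 15 arrays. The squamous and fiber covariates and the omission of week 15 for the counts were chosen after seeing the data.

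Quantile normalization moved the week 6 complex means from 0.30 to 0.23 (I), 0.26 to 0.16 (III) and 0.25 to 0.19 (V). Among differences that had passed for named genes, signs turned for Cox6a2 between weeks 15 and 6 with the muscle score (0.26), and with the squamous score for Cox6a1 at week 29 against control (0.05), between weeks 15 and 6 (-0.11) and between weeks 29 and 15 (0.10), and for Cox8a between weeks 15 and 6 (-0.06) and between weeks 29 and 15 (0.09). Among those that had not passed, the muscle score turned Cox6a2 at weeks 6 and 15 against control (-0.13 and 0.13) and Cox8b at week 6 (-0.10), among others. With 1 array left out, counts ran from 0 to 23 at week 6, 2 to 60 at week 15, 0 to 37 at week 29 and 0 to 3 for the slope. The adjusted permutation p of the isoform pairs ran from 0.000519 to 0.00513 (6a) and 0.000584 to 0.00506 (8).

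The deviations of 18 same-numbered pairs of arrays correlated from -0.41 to 0.29, with 8 over 0.1. Differently numbered pairs were not set beside them, so these values cannot decide whether same-numbered arrays share a batch or pairing. The replicate block changed the week 6 count from 7 to 12. With it the other counts were 37, 19, 71, 72 and 0, the slope count was 2 and the isoform p stayed at 0.000584 for each pair.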
